A study of Homo sapiens with 6 samples.

Results

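The RAB GTPase genes were read in MDA-MB-231 cells, a human triple-negative breast cancer cell line, after exposure to the histone deacetylase (HDAC) inhibitor PCI-24781 or to its solvent DMSO. Members were taken as all rows whose NCBI Gene ID has a current RefSeq symbol made of RAB, a number and at most 1 letter. This gave 60 RAB genes of 16623 genes in the files. A further 4 symbols of this form, RAB6C, RAB19, RAB39B and the pseudogene RAB1C, were in the RefSeq table but had no row. The 6 libraries were DMSO 24 h, 100 nM 24 h, 200 nM 24 h, DMSO 48 h, 100 nM 48 h and 200 nM 48 h, all from adherent, unmodified cultures of the same line, with 1 library per condition. No difference below therefore has a replicate check, an error or a p-value. The question was how the RAB genes stood in each PCI-24781 library beside the DMSO library of the same time.

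RAB proteins are small GTPases that sit on membranes and mark which compartment a vesicle comes from or goes to. Guanine nucleotide exchange factors (GEFs) load them with GTP, the GTP-bound form recruits effectors that move, tether and fuse the vesicle, and GTPase-activating proteins (GAPs) switch them off. A lipid anchor added by prenylation holds them on membranes, and GDP dissociation inhibitors (GDIs) extract them. In breast cancer cells, RAB proteins are known for the secretion of proteases and extracellular vesicles and for the recycling of integrins and growth factor receptors.

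Values are FPKM, fragments normalised to transcript length and to the mapped fragments of the library, as deposited. A difference is the change in log2(FPKM + 1) between 2 libraries, which understates the change of low genes. A gene was called higher or lower at 2-fold, and also at 1.5-fold, where its FPKM was at least 1 in either library. The depth, read from the steps between low FPKM values, was about 15700000 to 18200000 fragments per library, at which 3 fragments on a 2 kb transcript give an FPKM of 0.082 to 0.096. Most of the line's markers were as its name implies, with VIM at FPKM 1629 to 2053, AXL, CD44 and KRT18 at 89.0 or more, and ESR1 and PGR at or below 0.04. CDH1, PTPRC and PECAM1 lay at or below 2.33, and ERBB3 at 3.54 to 5.72. As these are bulk cultures, fewer cells expressing a gene and less RNA per cell cannot be told apart.

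Of the 6 libraries, DMSO 48 h and 100 nM 48 h stood out as a pair, and their contrast cannot show which of them is unusual. Of the 523 genes that were at least 2-fold higher at 200 nM 24 h, 498 also lay above DMSO 48 h in the 200 nM 48 h library, but 441 lay below it in the 100 nM 48 h library. Exchanged labels between DMSO 48 h and 100 nM 48 h and a true difference cannot be told apart with 1 library each. Results at 48 h are therefore given against DMSO 48 h and, where they matter, against 100 nM 48 h as well.

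Most of the RAB transcripts came from few genes. Of the 60 members, 49 had a mean FPKM of at least 1 over the 6 libraries and 11 did not. The 10 highest were RAB5C, RAB7A, RAB1B, RAB13, RAB8A, RAB34, RAB6A, RAB10, RAB1A and RAB11B, which held 62.8% of the summed mean FPKM of all RAB genes. The median level of the 49 expressed members was FPKM 15.6, beside 12.1 for all 11418 genes whose mean was 1 or more. The summed FPKM of the family stayed between 1509 (100 nM 24 h) and 1626 (100 nM 48 h). By class, RAB genes of early and recycling endosomes made up 30.6% to 32.2% of this sum, those of the endoplasmic reticulum (ER) and Golgi 23.2% to 26.0%, those of late endosomes and lysosomes 23.1% to 24.6%, and secretory RAB genes 16.7% to 18.7%. The composition by class thus differed by at most a few percent of the total between any libraries.

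**Figure D1:**
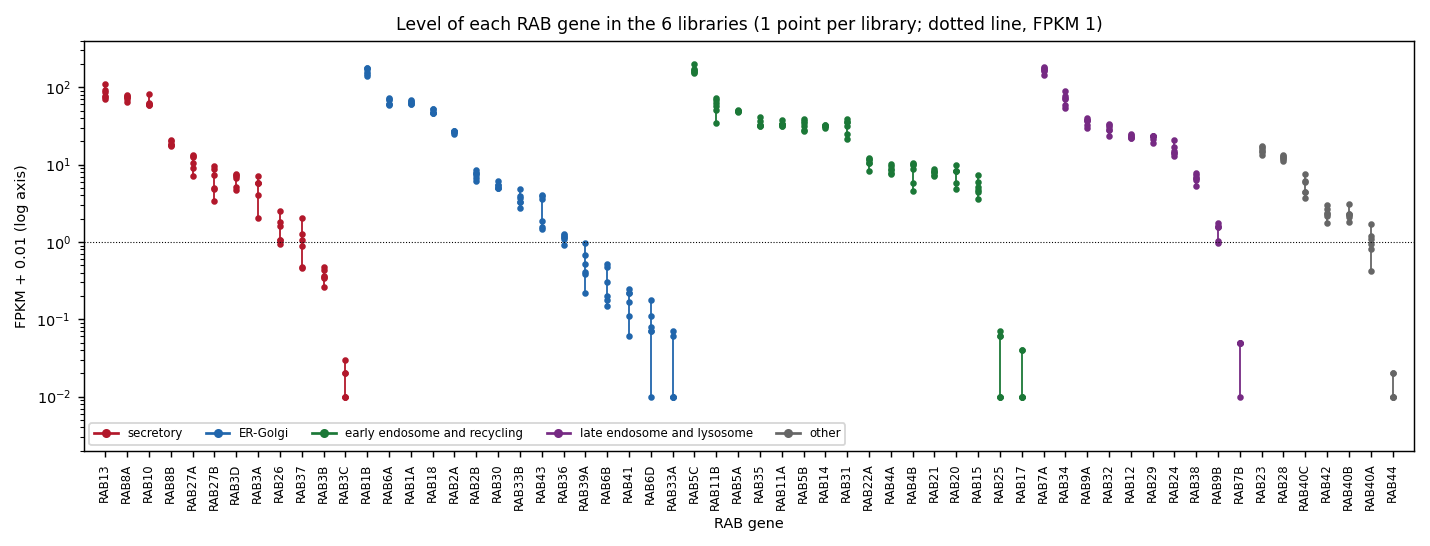
FPKM + 0.01 (log axis) of the 60 RAB genes, 1 point per library, grouped and coloured by class and sorted by mean level. RAB5C, RAB7A and RAB1B lie above FPKM 140 in all 6 libraries, while 11 members have a mean under the dotted line at FPKM 1.

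At the silent end, RAB33A, RAB17, RAB25, RAB7B, RAB44 and RAB3C were at or below FPKM 0.1 in every library. RAB25, an epithelial relative of RAB11, was listed at 0.05, 0 and 0.05 with rising dose at 24 h, then at 0, 0 and 0.06 at 48 h. RAB17, an epithelial-cell RAB of recycling endosomes, was listed between 0 and 0.03. The other 5 members with a mean under 1 were RAB39A at 0.21 to 0.95, RAB6B at 0.14 to 0.51, RAB3B at 0.25 to 0.47, RAB41 at 0.05 to 0.24 and RAB6D at 0 to 0.17.

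As a family, RAB genes shifted little. Over all 60 members, the median difference in log2(FPKM + 1) was 0.01 with 100 nM and 0.02 with 200 nM after 24 h, and -0.01 and 0.02 with these doses after 48 h. The median over all 16623 genes was 0.01, 0.03, -0.01 and 0.01 in the same order. Among the 49 expressed members alone, it was 0.02, 0.08, 0.0005 and 0.02, against 0.01, 0.0051, -0.01 and 0.0022 over all expressed genes. At 200 nM, 57.1% of these members lay higher at 24 h and 59.2% at 48 h, against 50.5% and 50.3% of all expressed genes. The median size of their difference, without its sign, was 0.10 at 100 nM 24 h and 0.31 at 200 nM 24 h, against 0.16 and 0.28 over all expressed genes. At 48 h, this median size was 0.08 at 100 nM and 0.10 at 200 nM, against 0.12 and 0.11 over all expressed genes. The largest spread within the family was thus at 200 nM 24 h, in both directions.

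Calls were correspondingly few. At 2-fold, only RAB3A was called higher at 200 nM 24 h, 1 of 47 members with sufficient expression, where 4.49% of all tested genes were called. None was lower there, where 1.48% of all tested genes were. No member was called at 2-fold in the other 3 comparisons with DMSO. There, the share of all tested genes called higher and lower was 1.35% and 0.131% for 100 nM 24 h, 0.0608% and 0.408% for 100 nM 48 h, and 0.206% and 0.06% for 200 nM 48 h. At 1.5-fold, RAB3A and RAB40A were higher at 100 nM 24 h, 2 of 48 members against 5.58% of all tested genes, and none was lower (1.25% of all tested genes). At 200 nM 24 h, RAB3A, RAB4B and RAB20 were higher, 3 of 47 members against 12.5%, and RAB11B was lower, 1 of 47 against 7.62%. At 100 nM 48 h, RAB26 was higher, 1 of 49 members against 0.504%, and none was lower (1.76%). At 200 nM 48 h, none of 49 was higher (1.53%) or lower (0.463%). At 200 nM 24 h, the members' counts were thus below the share of all tested genes in both directions, but each rests on few genes.

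**Figure D2:**
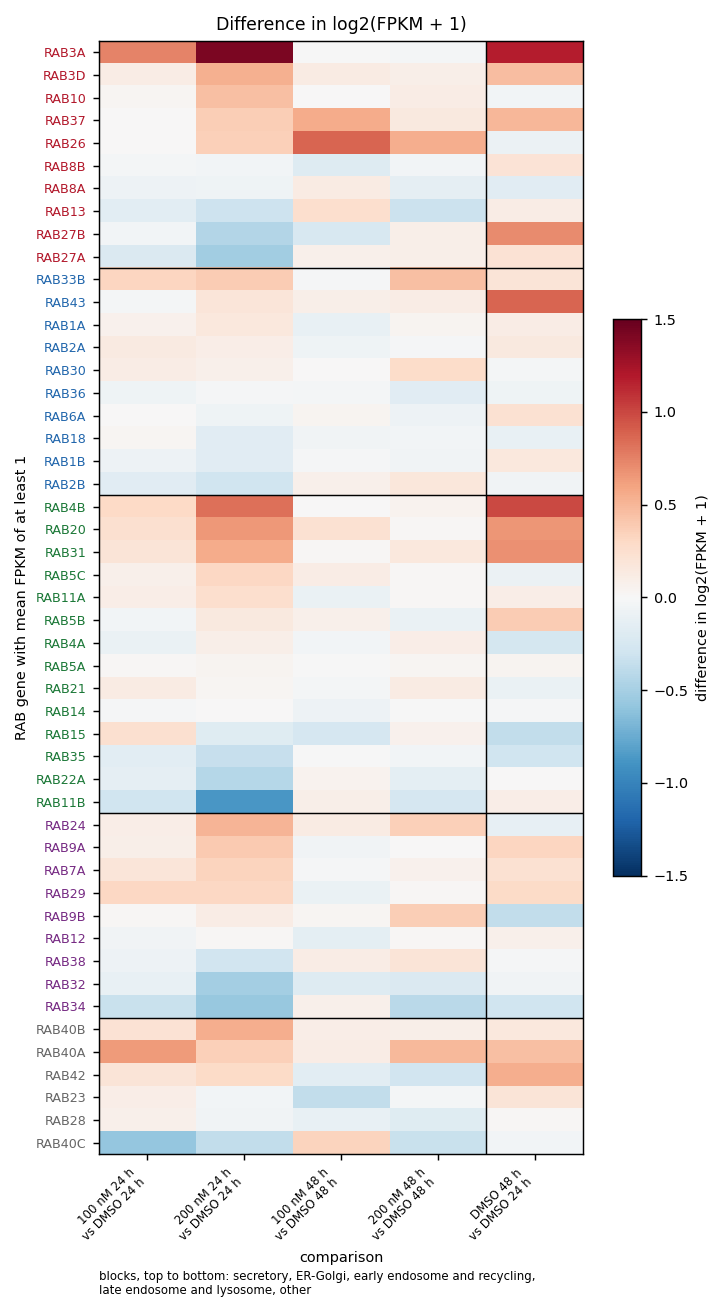
Difference in log2(FPKM + 1) of the 49 expressed RAB genes (mean FPKM 1 or more) (rows, in blocks by class) in the 4 comparisons with the DMSO library of the same time and, right of the line, between the DMSO libraries (red, higher; blue, lower). In the 200 nM 24 h column, RAB3A (1.41) and RAB4B (0.82) are higher and RAB11B (-0.87) is lower, and RAB26 (0.88) is the strongest in the 100 nM 48 h column.

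For 4 members described below for their difference at 200 nM 24 h, each with a single window in the RefSeq promoter table, the sequence is shown by the 250 bases before their annotated start (GRCh38.p14, written in the gene's direction), with RAB3A, RAB4B and RAB10 as genes with higher values and RAB11B as the gene with lower ones. Capitals mark GGGCGG and CCAAT on either strand.
RAB3A, chr19:18204043-18204292, minus strand: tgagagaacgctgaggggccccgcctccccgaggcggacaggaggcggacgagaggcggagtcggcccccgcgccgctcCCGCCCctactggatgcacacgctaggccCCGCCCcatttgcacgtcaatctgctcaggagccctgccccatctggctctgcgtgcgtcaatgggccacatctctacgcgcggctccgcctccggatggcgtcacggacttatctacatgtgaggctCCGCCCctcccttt
RAB4B, chr19:40777997-40778246, plus strand: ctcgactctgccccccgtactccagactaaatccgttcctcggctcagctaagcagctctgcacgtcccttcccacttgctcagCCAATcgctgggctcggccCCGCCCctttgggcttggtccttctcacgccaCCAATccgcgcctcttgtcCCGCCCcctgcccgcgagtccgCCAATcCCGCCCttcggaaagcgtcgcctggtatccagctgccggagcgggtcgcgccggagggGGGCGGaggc
RAB10, chr2:26033834-26034083, plus strand: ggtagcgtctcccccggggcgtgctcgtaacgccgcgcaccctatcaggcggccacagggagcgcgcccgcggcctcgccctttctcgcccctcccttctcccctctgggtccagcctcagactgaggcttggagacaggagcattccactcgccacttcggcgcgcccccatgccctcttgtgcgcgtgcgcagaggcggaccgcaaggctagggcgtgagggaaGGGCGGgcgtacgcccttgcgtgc
RAB11B, chr19:8390110-8390359, plus strand: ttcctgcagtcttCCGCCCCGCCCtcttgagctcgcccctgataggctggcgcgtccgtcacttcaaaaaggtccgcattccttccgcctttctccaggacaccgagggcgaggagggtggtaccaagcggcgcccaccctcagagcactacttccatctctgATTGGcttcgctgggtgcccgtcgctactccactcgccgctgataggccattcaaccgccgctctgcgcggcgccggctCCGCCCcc
All of these windows are rich in G and C, at 68.4% for RAB3A, 68.4% for RAB4B, 71.2% for RAB10 and 65.6% for RAB11B. GGGCGG, the core letters of the GC box, was found 3 times in RAB3A, 4 times in RAB4B, 1 time in RAB10 and 3 times in RAB11B. CCAAT was found 3 times in RAB4B and 1 time in RAB11B, but not in the other windows. GGGCGG thus stood before genes with higher and with lower values at 24 h alike.

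Across the family, 48 of the 60 members had a promoter in the table, with 69 windows between them. Of these, 58 belonged to members with a mean FPKM of 1 or more and were set beside the 13816 windows of all such genes. On both strands of these 250 bases, GGGCGG was found in 45 RAB windows (77.6%, against 64.5%), CCAAT in 18 (31.0%, against 33.1%), TATAAA in 3 (5.2%, against 5.6%) and CACGTG in 5 (8.6%, against 8.3%). TGACTCA was found in 4 (6.9%, against 2.9%) and TGACGTCA in 0 (against 2.5%). Over all 69 RAB windows and all 35116 windows of the table, the shares were 72.5% and 42.6% for GGGCGG, 29% and 32.0% for CCAAT, 7.2% and 10.7% for TATAAA, 7.2% and 6.3% for CACGTG, 7.2% and 4.2% for TGACTCA, and 1.4% and 1.6% for TGACGTCA. No searched motif holds another, and matches of GGGCGG can overlap each other, as in RAB11B. The median GC content was 64.4% in the 69 RAB windows and 64.8% in the windows of expressed genes.

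Secretory RAB genes held the largest single difference. RAB3A (NCBI Gene ID 5864; hg19, chromosome 19, 18307611 to 18314874, minus strand) encodes the RAB of synaptic vesicles and other regulated secretory vesicles. Its FPKM was 2.03 with DMSO, 4.09 with 100 nM and 7.07 with 200 nM at 24 h, and 5.84, 5.79 and 5.71 in the same order at 48 h. At 24 h it thus climbed with each dose, whereas the 3 libraries of 48 h were nearly equal. The differences in log2(FPKM + 1) were 0.75 and 1.41 at 24 h, then -0.01 and -0.03 at 48 h. DMSO 24 h was the lowest of the 6 libraries for RAB3A, with about 56 fragments against 109 to 191 in the others, and DMSO 48 h was itself higher than DMSO 24 h by 1.17. Against DMSO 48 h in place of DMSO 24 h, the 200 nM 24 h difference was 0.24 and the 100 nM 24 h difference was -0.43. Between the treated libraries of 24 h, which leaves DMSO out, 200 nM was higher than 100 nM by 0.66.

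RAB3D, a RAB of secretory granules, had a like pattern at 24 h at a smaller size. Its FPKM was 4.64, 5.10 and 7.13 in DMSO, 100 nM and 200 nM at 24 h, then 6.80, 7.48 and 7.26 at 48 h. The difference reached 0.53 at 200 nM 24 h and lay between 0.08 and 0.12 in the other 3 comparisons. RAB3B and RAB3C were at or below 0.47 throughout, so RAB3A and RAB3D made up nearly all of the RAB3 subfamily. The share of RAB3A in the summed FPKM of the subfamily was 29% in DMSO 24 h, then 42.9% and 48.3% with rising dose, and 42.4% to 44.9% in the libraries of 48 h.

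RAB27A and RAB27B, which dock multivesicular bodies and secretory granules at the plasma membrane and are known for exosome release, went the other way at 24 h. RAB27A had an FPKM of 10.55, 8.96 and 7.04 with rising dose at 24 h, then 12.38, 13.08 and 13.25 at 48 h. Its differences were -0.21 and -0.52 at 24 h, then 0.07 and 0.09 at 48 h. RAB27B had an FPKM of 5.01, 4.86 and 3.42 at 24 h, then 8.85, 7.31 and 9.48 at 48 h, with differences of -0.04, -0.44, -0.25 and 0.09. For both genes, 200 nM 24 h was the lowest library and all 48 h libraries were above all 24 h libraries. Neither reached 1.5-fold against DMSO of the same time.

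Among the abundant secretory members, RAB10, which serves delivery of vesicles to the basolateral and plasma membrane, stood out in 1 library. Its FPKM was 60.20, 61.52 and 82.97 at 24 h, then 58.67, 58.69 and 63.43 at 48 h, so 200 nM 24 h was above the other 5 libraries, which lay within 58.67 to 63.43. The difference was 0.46 against DMSO 24 h and 0.43 against 100 nM 24 h. RAB13, a RAB of tight junctions and of membrane delivery, had an FPKM of 86.50, 77.10 and 69.70 at 24 h, then 93.63, 111.71 and 74.41 at 48 h. Both 200 nM libraries were the lowest, with differences of -0.31 at 24 h, then -0.33 at 48 h, and 100 nM 48 h was the highest. RAB8A, which acts from the Golgi to the plasma membrane and at cilia, had 79.42, 75.01 and 75.80 at 24 h, then 70.33, 76.65 and 64.01 at 48 h, with differences of at most 0.13 in size. RAB8B stayed within 17.61 to 21.02.

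RAB26, a RAB of secretory granules, was the only member called against DMSO at 48 h. Its FPKM was 1.05, 1.05 and 1.62 at 24 h, then 0.93, 2.54 and 1.82 at 48 h. The differences were 0.00, 0.35, 0.88 and 0.55, and the highest library, 100 nM 48 h, belongs to the pair whose labels are in doubt. Against 100 nM 48 h, 200 nM 48 h was at -0.33, and exchanged labels would turn the sign of the 100 nM 48 h difference. These values rest on about 21 to 60 fragments per library. RAB37, a RAB of secretory granules at a similar level, likewise had its highest value at 100 nM 48 h, with 0.45, 0.46 and 0.87 at 24 h, then 1.04, 2.01 and 1.26 at 48 h. Its difference at 100 nM 48 h was 0.56, just inside the 1.5-fold limit of 0.585.

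**Figure D3:**
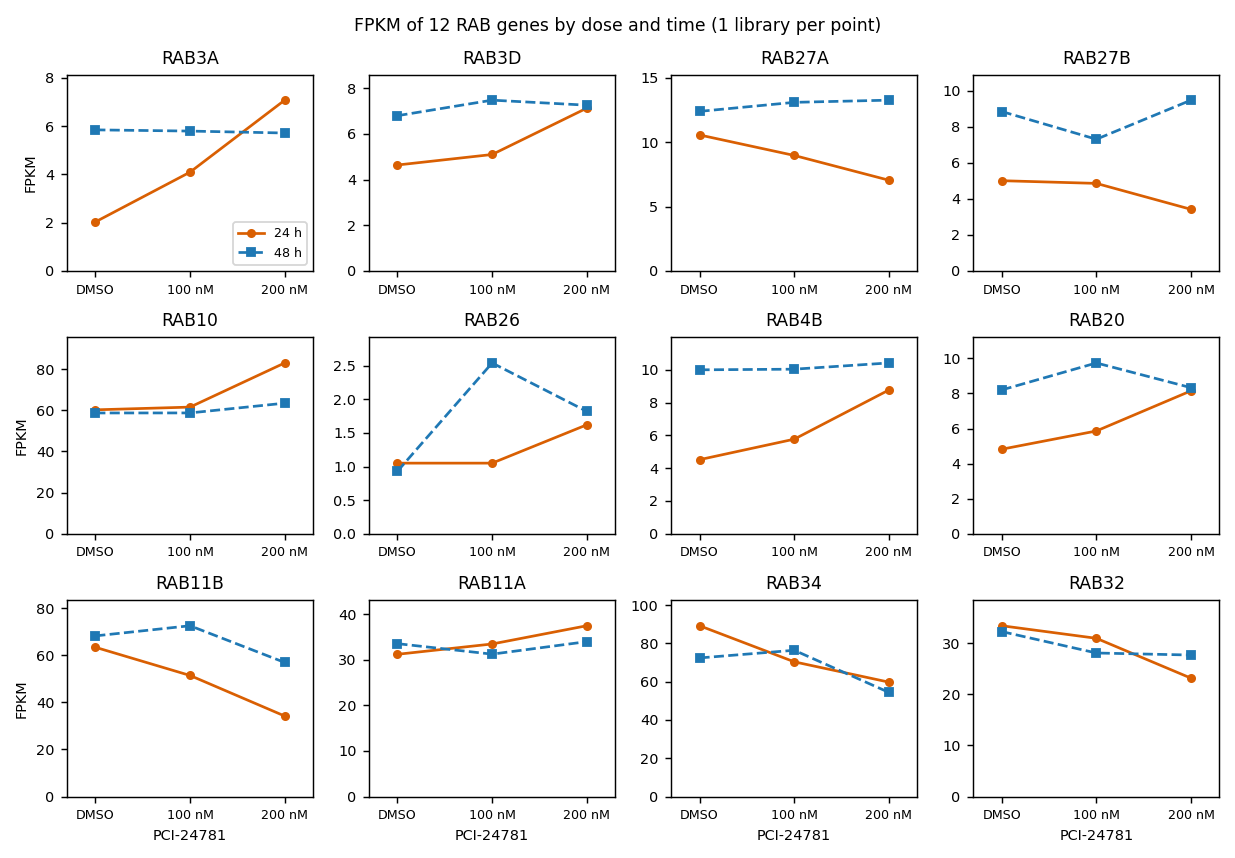
FPKM (vertical axis, from 0) of 12 RAB genes against PCI-24781 dose, with the 24 h libraries as orange circles and the 48 h libraries as blue squares, 1 library per point. RAB3A, RAB4B and RAB20 climb and RAB11B, RAB34 and RAB27A descend over the 24 h series, while the 48 h series of RAB3A stays between 5.71 and 5.84.

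Among RAB genes of the ER and Golgi, none of the 10 expressed members was called at 1.5-fold in any of the 4 comparisons. RAB1A and RAB1B drive transport from the ER to the Golgi. RAB1B had an FPKM of 159.06, 150.49 and 141.02 at 24 h, then 177.43, 175.17 and 171.63 at 48 h, so that each series was highest in DMSO and lowest at 200 nM. The differences were small, from -0.17 to -0.02. RAB1A ran from 59.99 to 67.61, with 60.29, 63.10 and 67.61 at 24 h, then 64.96, 59.99 and 66.96 at 48 h.

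RAB6A, which serves transport at and back from the Golgi, had an FPKM of 60.82, 61.11 and 58.29 at 24 h, then 71.25, 73.46 and 67.81 at 48 h. Its 4 differences were within 0.1, but the 48 h libraries were all above the 24 h libraries. RAB2A, RAB18 and RAB30 stayed within 24.92 to 27.62, 45.87 to 52.86 and 4.91 to 6.14. RAB33B, a Golgi RAB linked to autophagy, had its 3 highest values in 200 nM 48 h (4.89), 200 nM 24 h (3.89) and 100 nM 24 h (3.73), against 2.77 in DMSO 24 h and 3.31 in DMSO 48 h. RAB2B was at 6.09 to 8.46 and RAB36 at 0.90 to 1.24.

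The RAB genes of early and recycling endosomes held the highest level of the family and also most of its 1.5-fold calls at 200 nM 24 h. RAB5A, RAB5B and RAB5C direct fusion of early endosomes. RAB5C had an FPKM of 163.11, 171.93 and 201.76 at 24 h, then 153.17, 165.99 and 155.47 at 48 h, with 200 nM 24 h the highest (difference 0.31). RAB5A had 47.92, 48.67 and 49.41, then 49.25, 48.87 and 50.34, with all 4 differences within 0.05. RAB14 also stayed within 0.1 in all 4 comparisons.

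RAB4B (NCBI Gene ID 53916; hg19, chromosome 19, 41284124 to 41302849, plus strand) belongs to the RAB4 pair of fast recycling. Its FPKM was 4.52, 5.77 and 8.77 with dose at 24 h, then 10.00, 10.04 and 10.42 at 48 h. The 24 h values climbed, the 48 h values were level and all lay above those of 24 h. Its differences were 0.29, 0.82, 0.01 and 0.05, and DMSO 48 h was higher than DMSO 24 h by 0.99. Set against DMSO 48 h, the 200 nM 24 h library was lower, at -0.17. RAB4A, by contrast, ranged from 8.84 to 10.19 at 24 h and from 7.55 to 8.44 at 48 h, so the share of RAB4B in the pair was 32.1%, 39.5% and 46.3% with dose at 24 h and 55.2% to 57.1% at 48 h.

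RAB20, a RAB of endosomes and phagosomes, had a pattern like that of RAB4B. Its FPKM was 4.82, 5.86 and 8.15 at 24 h, then 8.20, 9.74 and 8.33 at 48 h. The differences were 0.24, 0.65, 0.22 and 0.02, while DMSO 48 h exceeded DMSO 24 h by 0.66. Compared with DMSO 48 h, the value at 200 nM 24 h differed by -0.01. RAB31, which acts between the Golgi and endosomes, also climbed at 24 h, with 21.45, 24.63 and 32.03, and was at 35.13, 35.57 and 39.36 at 48 h. Its difference of 0.56 at 200 nM 24 h was just inside the 1.5-fold limit.

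RAB11A and RAB11B both serve the slow recycling endosome, through which integrins and receptors return to the surface, but their transcripts differed in direction. RAB11B (NCBI Gene ID 9230; hg19, chromosome 19, 8455205 to 8469318, plus strand) had an FPKM of 63.40, 51.43 and 34.20 at 24 h. At 48 h it stood at 68.24, 72.55 and 56.96, so 200 nM was the lowest library at each time. The differences were -0.30, -0.87, 0.09 and -0.26. RAB11A had 31.19, 33.45 and 37.45 at 24 h, then 33.52, 31.22 and 33.96 at 48 h, with differences of 0.10, 0.26, -0.10 and 0.02.

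The RAB11B difference did not rest on the DMSO 24 h library. Against DMSO 48 h, the value at 200 nM 24 h differed by -0.98, and against 100 nM 24 h by -0.57. At 48 h, 200 nM was lower than 100 nM by a log2 difference of -0.34. With some 1060 to 2274 fragments per library, RAB11B was counted far more deeply than RAB3A or RAB4B. Its share of the RAB11A and RAB11B sum was 67.0% in DMSO 24 h and dropped with dose to 60.6%, then 47.7%. At 48 h the share was 67.1%, 69.9% and 62.6%.

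**Figure D4:**
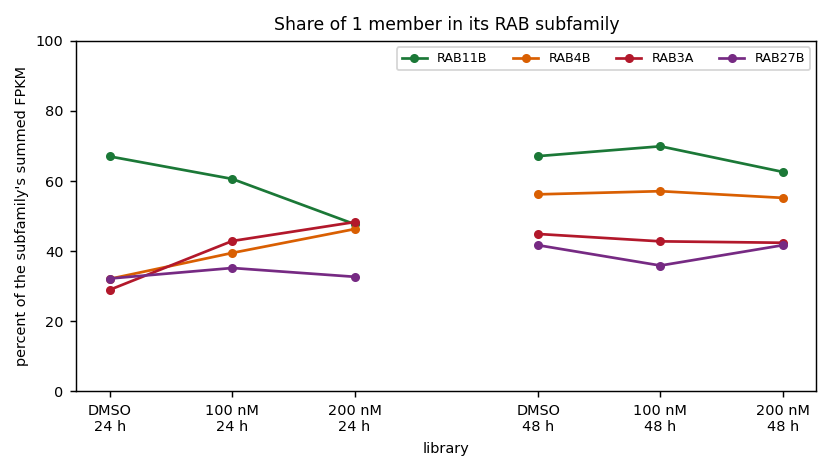
Percent of the subfamily's summed FPKM held by RAB11B (of RAB11A and RAB11B), RAB4B (of RAB4A and RAB4B), RAB3A (of the 4 RAB3 genes) and RAB27B (of RAB27A and RAB27B), in the 6 libraries. RAB11B drops from 67.0% to 47.7% over the 24 h series, RAB3A and RAB4B climb over it, and the lines of these 3 genes are flatter at 48 h, while RAB27B stays between 32.2% and 41.7% throughout.

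The other expressed members of this class were RAB22A at 8.33 to 12.07, RAB35 at 31.82 to 40.81, RAB21 at 7.18 to 8.77, RAB15 at 3.55 to 7.26 and RAB5B at 27.35 to 38.91. RAB22A, which acts in recycling from early endosomes, was lowest at 200 nM 24 h, with a difference of -0.43. RAB35, a RAB of fast recycling at the plasma membrane, was highest in DMSO 24 h and lower than the same-time DMSO library in all 4 comparisons, by -0.16, -0.35, -0.01 and -0.05.

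In late endosomes and lysosomes, no member reached 1.5-fold. RAB7A, which directs fusion of late endosomes with lysosomes, had an FPKM of 145.20, 164.35 and 183.44 with dose at 24 h, then 170.29, 167.98 and 178.68 at 48 h. The differences were 0.18, 0.34, -0.02 and 0.07. RAB9A, which serves return from late endosomes to the Golgi, had a like step at 200 nM 24 h (0.39) and stayed within 36.53 to 38.05 at 48 h. RAB24, linked to autophagy, was higher at both times at 200 nM, with 20.58 against 14.18 in DMSO at 24 h, then 16.84 against 12.93 at 48 h.

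RAB34 and RAB32 lay in the opposite direction. RAB34, a RAB of lysosome positioning, macropinocytosis and cilia, had an FPKM of 89.19, 70.35 and 59.74 at 24 h, then 72.38, 76.38 and 54.38 at 48 h. The 200 nM library was the lowest at each time, with differences of -0.57 at 24 h, then -0.41 at 48 h, and of -0.48 against 100 nM 48 h. A gene without a symbol overlaps RAB34 on the same strand, at FPKM 1.18 in 200 nM 24 h and 0 in the other libraries. Whether it took reads from RAB34 was not tested. RAB32, a RAB of lysosome-related organelles and mitochondria, had 33.46, 31.00 and 23.19 at 24 h, then 32.32, 28.12 and 27.72 at 48 h. All 4 differences were negative, at -0.11, -0.51, -0.19 and -0.21, which made RAB32 the only member lower by at least 0.1 in all 4 comparisons. Against 100 nM 48 h, however, 200 nM 48 h was at -0.02, and exchanged labels at 48 h would turn the sign of the 100 nM 48 h difference. Its relative RAB38 had differences of -0.08 and -0.29 at 24 h, then 0.11 and 0.19 at 48 h. RAB12, RAB29 and RAB9B were at 21.88 to 24.61, 18.78 to 23.60 and 0.97 to 1.74.

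Of the remaining members, the RAB40 genes encode RAB proteins with a SOCS box, which joins them to a ubiquitin ligase. RAB40A had an FPKM of 0.41, 1.19 and 0.81 at 24 h, then 0.92, 1.08 and 1.70 at 48 h. All 4 differences were positive, at 0.64, 0.36, 0.12 and 0.49, which made it the only member higher by at least 0.1 in all 4 comparisons, although against DMSO 48 h the 200 nM 24 h library was at -0.09. Exchanged labels at 48 h would turn the sign of its 100 nM 48 h difference too. The values rest on about 15 to 53 fragments, and the near-copy RAB40AL, at 0 to 0.16, may share reads with it. Without the limit of 0.1, 12 expressed members were higher in all 4 comparisons and 5 were lower. RAB24 fell just short of that limit, at 0.09 for 100 nM 24 h. RAB40B was at 1.78 to 3.05, with its highest value at 200 nM 24 h. RAB40C had 6.08, 3.75 and 4.47 at 24 h, then 5.87, 7.65 and 4.44 at 48 h, with differences of -0.58, -0.37, 0.33 and -0.34. RAB23, known from hedgehog signalling, RAB28 and RAB42 were at 13.21 to 17.36, 11.10 to 13.28 and 1.76 to 3.04.

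The 2 doses were also compared with each other, which leaves the DMSO libraries out. At 24 h, RAB3A alone was called higher at 200 nM than at 100 nM at 1.5-fold (1 of 48 members, 3.09% of all tested genes), and none was lower (2.15%). At 48 h, RAB40C was called lower (1 of 49, 2.37%) and none higher (5.6%). RAB13 was just inside the limit there, at -0.58. If DMSO 48 h and 100 nM 48 h were exchanged, these 48 h values would be the comparison of 200 nM with DMSO.

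Comparisons at 24 h and at 48 h share no library. At 200 nM, 39 of the 49 expressed members lay in the same direction at both times (79.6%, against 70.1% of all expressed genes), of which 24 were higher and 15 lower. At 100 nM, 22 of 49 did (44.9%, against 35.0%). The Pearson correlation between the times was 0.42 across the 49 members at 200 nM, against 0.64 across all expressed genes, and -0.18 against -0.55 at 100 nM. These are descriptions across genes, which are not independent within a pair of libraries. Exchanged labels between DMSO 48 h and 100 nM 48 h would turn the sign of each 100 nM 48 h difference and of both 100 nM correlations. The 200 nM differences at 48 h also use DMSO 48 h and would change too. By direction the members kept more, and by correlation less, than all expressed genes at 200 nM. Some of the largest differences at 24 h, RAB3A, RAB4B and RAB20, were near 0 at 48 h, while RAB11B, RAB34, RAB32 and RAB13 were lower at both times.

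**Figure D5:**
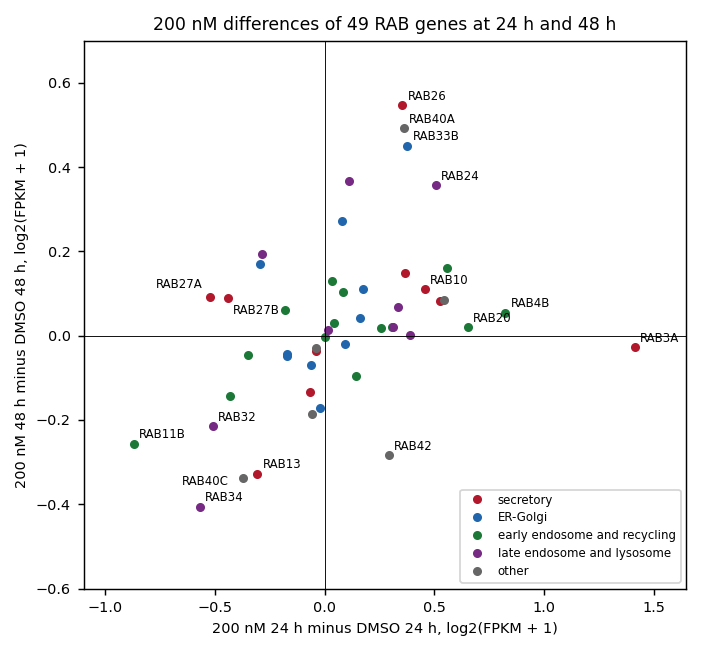
Difference in log2(FPKM + 1) between 200 nM and DMSO at 24 h (horizontal axis) and at 48 h (vertical axis) for the 49 expressed RAB genes (mean FPKM 1 or more), coloured by class. RAB3A lies far right at 1.41 but at -0.03 on the vertical axis, while RAB11B (-0.87, -0.26) and RAB34 (-0.57, -0.41) lie in the lower left.

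The DMSO libraries were compared with each other as well, 1 library for each time. DMSO 48 h was at least 2-fold higher than DMSO 24 h for RAB3A alone (1 of 48 members, 2.49% of all tested genes). At 1.5-fold, RAB3A, RAB4B, RAB20, RAB27B, RAB31 and RAB43 were higher, 6 of 48 members against 8.51%, and none was lower (1.95%). RAB3A, RAB4B, RAB20 and RAB31 also exceeded DMSO 24 h in the 200 nM 24 h library, by 0.56 or more. Both comparisons use DMSO 24 h, so a low value in that library would show in each.

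A description that uses all libraries and no single reference is whether the 3 libraries of one time lay wholly above those of the other. Among the 49 expressed members, 11 had every 48 h library above every 24 h library, where 11.5% of all 11418 expressed genes did, and 4 (RAB14, RAB15, RAB36 and RAB4A) had every 48 h library below, against 13.5%. The 11 were RAB1B, RAB20, RAB27A, RAB27B, RAB31, RAB37, RAB43, RAB4B, RAB5B, RAB6A and RAB8B. The 3 libraries of a time differ in dose, so they are not replicates, and no test was made. An exchange of labels within 48 h would leave these counts as they are.

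The sizes ranged widely among these 11. RAB37, with about 19 to 85 fragments per library, had the largest ratio of the means of 48 h to 24 h, at 2.42. RAB43, a Golgi RAB, had 1.53, 1.48 and 1.86 at 24 h, then 3.63, 3.91 and 4.0 at 48 h, a ratio of the means of 2.37. The readthrough gene ISY1-RAB43, at 8.38 to 12.28, overlaps RAB43 on the same strand, so the split of reads between them is uncertain. For RAB27B the ratio was 1.93 and for RAB4B 1.60. For RAB1B, RAB6A and RAB8B the ratio was only 1.16, 1.18 and 1.12. RAB15, an early endosome RAB, had the largest difference of the 4 in the other direction, with a mean of 6.12 over the 24 h libraries and 4.19 over those of 48 h. CHURC1, at 8.82 to 14.28, overlaps RAB15 on the opposite strand, and whether strand was used in counting is not given in the sources used here.

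The regulators and effectors of RAB proteins were read from a list of 140 genes, all of which were in the files. Of these, 9 were called at 2-fold in at least 1 of the 4 comparisons, all of them at 24 h. At 200 nM 24 h, of those with sufficient expression, the 33 GEFs had 2 higher and 0 lower, the 33 GAPs 1 and 0, the 45 effectors 4 and 1, the 8 RAB-like genes 1 and 0, and the 8 prenylation and GDI genes 0 and 0, beside 4.49% of all tested genes higher and 1.48% lower. The medians over all listed genes at 200 nM 24 h were 0.02 for the GEFs, 0.11 for the GAPs, 0.01 for the effectors, 0.16 for the RAB-like genes and -0.0009 for prenylation and GDI genes, beside 0.03 over all genes.

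Effectors of RAB27, RAB5, RAB7 and RAB11 were among those called. SYTL2, a synaptotagmin-like effector that binds RAB27, had an FPKM of 2.06, 5.07 and 5.93 at 24 h, then 4.35, 2.97 and 6.26 at 48 h. UNC13D (Munc13-4), a RAB27 effector that primes granules for fusion, was the only one called lower, with 38.44, 21.10 and 12.86 at 24 h, then 28.86, 39.05 and 20.89 at 48 h. These partners of RAB27 thus differed in opposite directions at 200 nM 24 h, by 1.18 and -1.51, where RAB27A and RAB27B were lower by -0.52 and -0.44.

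EEA1, the tether that RAB5 recruits to early endosomes, had 3.94, 9.98 and 9.33 at 24 h, then 7.04, 4.66 and 9.35 at 48 h. FYCO1, which links RAB7 to kinesin, had 6.52, 9.88 and 14.88 at 24 h, then 10.92, 10.89 and 13.83 at 48 h. RAB11FIP1, a RAB11 effector of recycling, had 4.94, 7.59 and 11.48 at 24 h, then 8.05, 6.80 and 9.33 at 48 h. All of these were lowest in DMSO 24 h, and SYTL2, EEA1 and RAB11FIP1 lay below DMSO 48 h in the 100 nM 48 h library. FYCO1 was nearly level between those libraries.

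IFT27, a RAB-like subunit of the intraflagellar transport machinery of cilia, had the largest difference among the regulators. Its FPKM was 5.99, 15.30 and 21.64 at 24 h, then 10.58, 9.83 and 11.24 at 48 h, with differences of 1.22 and 1.70 at 24 h, then -0.10 and 0.08 at 48 h. The GEF DENND6B (0.35, 0.79 and 1.87 at 24 h), the RAB5 GEF relative ALS2CL (1.61, 3.09 and 4.58) and the GAP GRTP1 (1.29, 2.52 and 3.72) were called higher at 200 nM 24 h. At 48 h, DENND6B had 1.0, 0.85 and 1.28, ALS2CL 2.87, 1.46 and 4.23, and GRTP1 2.03, 2.06 and 3.0.

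The ARF and ARL genes, another family of small GTPases in membrane traffic, were read the same way for scale. The search for this set also took the symbols SAR1A and SAR1B. At 200 nM 24 h, 3 of 24 tested genes of the set were called higher at 2-fold and none lower, beside 1 and 0 of 47 RAB genes. The shares of all tested genes were 4.49% higher and 1.48% lower, and each family's count rests on few genes. The median size of the difference among expressed genes was 0.17 for the ARF and ARL set and 0.31 for RAB genes, beside 0.28 over all expressed genes.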

How the data were processed

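The 6 libraries hold RNA of MDA-MB-231 cultures, 1 for each solvent or inhibitor dose at each time. The deposited FPKM values were calculated by the authors and given to 2 decimals. The submitters' processing notes name Bowtie2, RSEM and hg19 without versions or roles. RNA was extracted with TRIzol, and a sequencing company enriched mRNA or depleted rRNA, so the choice between these is open. FPKM is scaled to the library total, so a shift in total RNA per cell is not visible. Samples were grouped by their labels.

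Gene symbols were matched by NCBI Gene ID to RefSeq (GRCh38.p14), where 16585 of 16623 were found and 38 were not. Gene coordinates are those of the files (hg19). Promoter sequences are from RefSeq on GRCh38.p14, and no coordinates were converted. Differences were taken in log2(FPKM + 1) on the whole table and called at 2-fold or 1.5-fold with FPKM of at least 1 in either library. The files hold no counts and each condition is a lone library. No test was run, and an additive fit of dose and time over the 6 libraries was not made. Members with at least a 1.5-fold change in any comparison with DMSO, the 10 highest, those differing the same way by at least 0.1 in all 4 comparisons, and RAB27A, RAB27B, RAB3D, RAB11A, RAB5A, RAB7A, RAB1A and RAB25 were named by rule, as were regulators called at 2-fold. Further members are named after their values were seen. The members and lists were chosen with earlier results of these data known. Depth was inferred from steps between low values and is approximate. Alternatives were pseudocounts of 0.1 and 0.01, other filters, TPM and median-of-ratios scaling, a 1.5-fold threshold and other DMSO references. The median without members of mean FPKM under 1 was added after seeing the data. How often calls at 2-fold or 1.5-fold would differ in a second library of the same condition was not tested. The scripts ran under Python 3.11.15 with numpy 2.4.6, with pandas 2.3.3 for tables, and drew figures with matplotlib 3.10.9.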

Additional observations from a re-analysis of the deposited data

Results flagged for a closer look

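For 4 RAB genes, both doses differed from DMSO in 1 direction at 24 h and in the other at 48 h, each by at least 0.05 on the log2(FPKM + 1) scale. The mean difference at 48 h minus that at 24 h was 0.45 for RAB27A, 0.35 for RAB2B and 0.34 for RAB38, which were lower at 24 h and higher at 48 h. It was -0.46 for RAB42, a little characterised RAB, which was higher at 24 h and lower at 48 h. These are 4 of the 49 expressed members (8.16%), where 620 of all 11418 expressed genes (5.43%) met the same condition. The sign at 100 nM 48 h rests on the pair of libraries whose labels are in doubt and would turn if they were exchanged. The difference between the times was not tested, since each rests on 1 library per condition. RAB2B reached at most FPKM 8.46, RAB38 7.71 and RAB42 3.04. The values of RAB42 rest on about 45 to 75 fragments per library.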

How the results depend on the processing

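The medians over the RAB genes moved by less than 0.1 under each alternative run, although against DMSO 48 h those of 24 h went below 0, to -0.02 and -0.0039. Scaling moved the median of all expressed genes to at most -0.05 (median-of-ratios, 200 nM 24 h). The counts of 2-fold calls are 0 or 1, so small steps show. At 100 nM 24 h, the number higher went from 0 to 1 with a pseudocount of 0.1, 2 with 0.01 and 2 at 1.5-fold. At 100 nM 48 h, it went from 0 to 1 with either pseudocount, with TPM or at 1.5-fold, and to 3 against DMSO 24 h. At 200 nM 48 h, it was 2 against DMSO 24 h. At 200 nM 24 h, the number higher went from 1 to 3 at 1.5-fold and to 0 against DMSO 48 h or the mean of both DMSO libraries, and the number lower went from 0 to 1 at 1.5-fold (RAB11B) and to 1 against DMSO 48 h (RAB27B, at -1.16). Against DMSO 48 h, the 24 h differences of RAB3A at 100 nM (-0.43) and of RAB20 (-0.0079) and RAB4B (-0.17) at 200 nM turned negative. So did others, among them RAB4B (-0.70), RAB20 (-0.42) and RAB3D (-0.35) at 100 nM and RAB40A (-0.09) at 200 nM. RAB8A turned positive, at 0.09 with 100 nM and 0.11 with 200 nM. The cause was not tested. RAB11B, RAB34 and RAB10 kept their direction at 200 nM 24 h under this reference, at -0.98, -0.27 and 0.49. About 15700000 to 18200000 fragments a library limit RAB40A, RAB26, RAB37, RAB36 and RAB42, which rest on fewer than 100 fragments in each library. The 6 members at or below FPKM 0.1 lie under the value of 3 fragments on 2 kb.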
